A study of Bos taurus with 4 samples.

Results

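Histone variants are encoded by genes outside the large replication-dependent clusters, and their messages are polyadenylated, so they can be followed in oligo(dT)-selected RNA (H2AX also makes a stem-loop form, which this selection misses). They replace the canonical histones throughout the cell cycle and mark particular regions: H3.3 is laid down at active genes and on the paternal genome after fertilization, H2A.Z flanks transcription start sites, and macroH2A is found on repressed chromatin such as the inactive X. H2AX is the form that is phosphorylated around DNA breaks, and the oocyte linker histone H1-8 packages the chromatin of the egg and early embryo until somatic linker histones take over. The transcripts of 6 such genes were examined, H3-3A, H3-3B, H2AZ1, H2AX, H1-8 and MACROH2A1, chosen by name. Each had 1 row in the table, so they make up 6 of its 14517 RefSeq transcripts and 6 of the 14002 genes with a symbol.

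The RNA came from bovine (Bos taurus) embryos at the 8/16-cell stage, 3 days after insemination, when the embryo's own genome is being activated. Zygotes had been injected either with negative control siRNAs (the controls, NC, n = 2 libraries) or with siRNAs that target KDM5A, KDM5B and KDM5C, genes for H3K4 demethylases (the knockdown, KDM5_KD, also n = 2). The comparison addresses which transcripts differ when KDM5 genes are knocked down, in a series that mapped trimethylated H3K4, a mark carried by H3 and its variants. The labels give neither the number of embryos in a library nor the breed, and nothing says that replicates came from separate injections, so p-values measure only the spread between these libraries, which may be technical.

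The labels of KDM5_KD replicate 2 contradict each other, since the title names the KDM5 knockdown and the treatment entry KDM6 siRNAs. KDM5A was at 28.4 and 27.1 FPKM (fragments scaled to transcript length and library size) in the controls against 10.5 and 10.1 FPKM in the knockdown, and KDM5C at 28.1 and 40.6 against 15.1 and 17.8 FPKM, while KDM6A was at 7.63 and 11.3 against 7.90 and 9.29 FPKM. Both libraries of the knockdown group were therefore below both controls for the 2 KDM5 genes analysed, and their KDM6A values lay within the range of the controls. A gene's log2 fold change printed below that moves by over 1.5 times without this library is also given without it. FPKM summed to between 283347 and 322267 per library, and by the steps of the lowest values NC replicate 1 had 0.683 times the depth of NC replicate 2, which was 1.25 times and 1.28 times as deep as the knockdown libraries. Read counts are unknown, and the precision of every value rests on 2 libraries per group.

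The embryo markers POU5F1, NANOG, SOX2, KLF4 and DPPA3 were all present, with 7 of 14 listed genes having rows and each of these tested. Their 8 rows summed to 1286 and 1185 FPKM in the controls against 1251 and 1096 FPKM in the knockdown. Of the 8, 1 lay above both controls in both knockdown libraries and 3 below, against 35.1% and 15.6% of all tested transcripts. SOX2 was at 107 and 76.3 against 66.2 and 53.8 FPKM, and the higher DPPA3 row at 179 and 128 against 249 and 216 FPKM. ZSCAN4, DUXA, LEUTX, ARGFX and KLF17 had no row, and the markers that were present cannot fix the labelled stage. Transcripts of 12 of 13 oocyte and maternal genes were also present, and their summed level was 384 and 319 FPKM in the controls against 435 and 553 FPKM in the knockdown. Rows for 18 listed cumulus or granulosa cell genes, the somatic cells that surround the oocyte, summed to 71.2 and 32.8 FPKM in the controls against 162 and 169 FPKM in the knockdown. Much of this came from VIM, a broadly expressed intermediate filament gene, and without it the sums were 35.5 and 24.8 against 77.0 and 70.9 FPKM. The list also holds LUM, DCN and COL1A2, which stromal cells express too, and DCN is on the stroma list as well. LUM was at 4.02 and 5.12 FPKM in the controls against 23.8 and 15.6 FPKM in the knockdown. CYP19A1 and PTX3 reached at most 0.0602 and 0.353 FPKM, and AMH was at 2.77 and 1.12 against 1.28 and 0.957 FPKM. Of these 18, 12 were high enough to test, and 10 lay above both controls in both knockdown libraries, against 35.1% of all tested transcripts and 47.97% of those in the lowest of 4 equal groups by level, while the gonadotropin receptor genes FSHR and LHCGR were listed at 0 in both controls and at no more than 0.0443 FPKM in the knockdown libraries. In bulk libraries more cells of a type and more RNA per cell cannot be told apart. Rows for 5 fibroblast or stroma genes summed to 55.1 and 44.8 FPKM in the controls against 82.8 and 63.9 FPKM in the knockdown. The 5 leukocyte marker rows and the 5 sperm marker rows were all below the level needed for a test.

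The 6 histone variant transcripts covered a wide range of levels, and all were among the more abundant messages of these embryos. H3-3B (NM_001242571), which encodes H3.3, led with 847 ± 51.9 FPKM (SD over the 4 libraries) and ranked 15 of 14517 rows by mean level. H3-3A (NM_001014389), the other H3.3 gene, had 368 ± 56.6 FPKM and ranked 96. H2AZ1 (NM_174809) had 357 ± 52.3 FPKM, at rank 105. H2AX (NM_001079780) came next and ranked 294, with 160.0 ± 17.6 FPKM. H1-8 (NM_001035372) had 54.8 ± 19.8 FPKM and MACROH2A1 (NM_001046340) 36.9 ± 1.93 FPKM, at ranks 1207 and 1800. All 6 lay in the highest of 4 equal groups of tested transcripts, which began at 28.7 FPKM. FPKM is scaled to transcript length, so these levels can be compared between genes, within limits. Reads from near-identical retrocopies of H3-3A, H3-3B or H2AZ1 may have been divided between rows or lost. The stem-loop form of H2AX is missed, so its level here covers only part of its message.

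**Figure D1:**
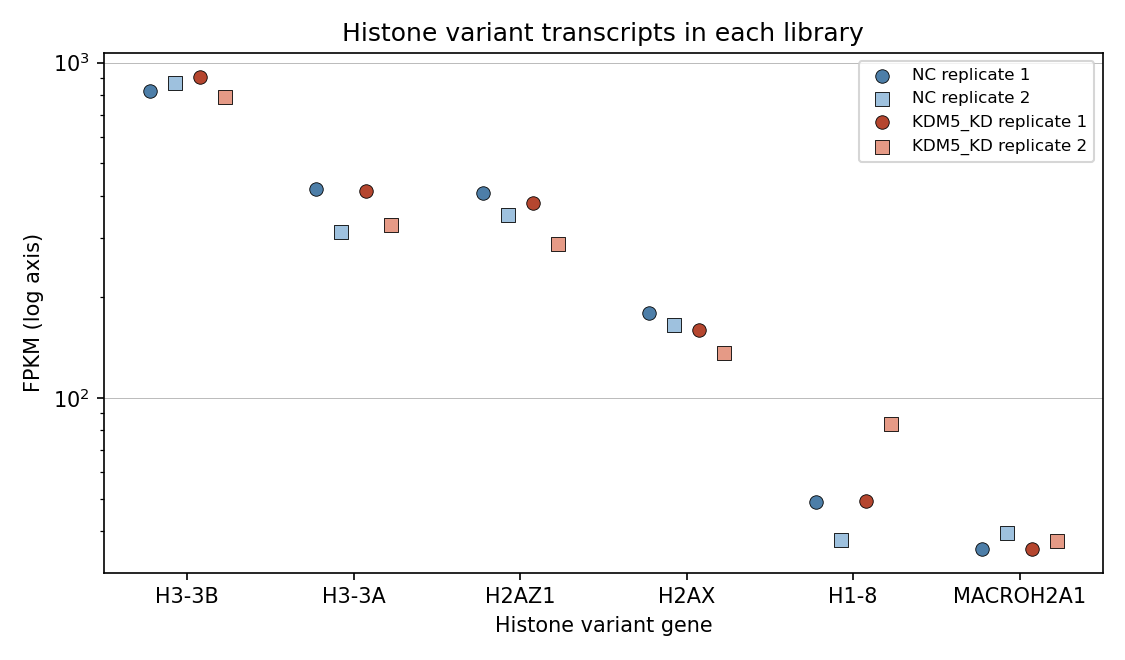
FPKM on a log axis of the 6 histone variant transcripts, with 1 point for each library (circles replicate 1, squares replicate 2; blue NC, red KDM5_KD). H3-3B sits between 790 and 908 FPKM and MACROH2A1 between 35.4 and 39.5 FPKM, while H1-8 spreads from 37.6 to 83.4 FPKM.

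The order of the levels was the same in all 4 libraries except for the neighbours H3-3A and H2AZ1, and H1-8 and MACROH2A1. H3-3B exceeded H3-3A by 1.96-fold to 2.79-fold within a library. H2AZ1 exceeded the polyadenylated form of H2AX by 2.10-fold to 2.38-fold, and that form exceeded H1-8 by 1.637-fold to 4.395-fold. The ranges of these neighbours did not overlap. H3-3A was above H2AZ1 in 3 of 4 libraries (0.891-fold to 1.14-fold), and H1-8 was above MACROH2A1 in 3 of 4 (0.954-fold to 2.23-fold). Both exceptions came from NC replicate 2, and neither pair differed beyond its spread.

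H3-3A and H3-3B encode the same H3.3 protein from separate genes, and H3.3 is the H3 variant that is incorporated outside S phase. H3-3B was at 823 and 869 FPKM in the controls against 908 and 790 FPKM in the knockdown, so the knockdown libraries lay on either side of the controls. Its log2 fold change, computed on log2(FPKM + 1), was 0.0021 (standard error, SE, of 0.126, limma adjusted p of 0.995, 95% interval from -0.30 to 0.31, or 0.810-fold to 1.24-fold). H3-3A was at 420 and 312 FPKM in the controls against 414 and 327 FPKM in the knockdown. In each group 1 library was high and the other low, and the groups overlapped almost fully. The difference of H3-3A was 0.026 on the log2 scale (SE 0.189, limma adjusted p of 0.959, interval from -0.44 to 0.49). Within groups H3-3A differed by 0.43 (NC) and 0.34 (KDM5_KD) on the log2 scale, and only 9.99% of transcripts in the same level group had a wider spread between replicates. Both H3.3 differences were close to 0, and their sign became negative under median-ratio scaling and under a common sum, which shifted the median of all transcripts by -0.098 and -0.10. Without KDM5_KD replicate 2 they were 0.10 (H3-3B) and 0.20 (H3-3A).

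Together the H3.3 genes gave 1242 and 1181 FPKM in the controls against 1322 and 1117 FPKM in the knockdown. H3-3A contributed 33.8% and 26.4% of this sum in NC and 31.3% and 29.3% in KDM5_KD, so the mean contribution was 30.1% ± 5.21 and 30.3% ± 1.43 (SD, n = 2 each). H3-3B was the larger source in every library. The H3.3-like gene H3-5 was at 0.0800 to 0.267 FPKM, below the level tested, and H3-3D, a further H3.3-type gene of the bovine annotation, was listed at 0 in all 4 libraries. CENPA, the centromeric H3 variant, was at 32.0 and 29.9 FPKM in the controls against 29.8 and 26.6 FPKM in the knockdown, a log2 fold change of -0.13 (limma adjusted p of 0.662), or -0.055 without KDM5_KD replicate 2.

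The 3 H2A variant members, H2AZ1, H2AX and MACROH2A1, had lower means in the knockdown, and in limma 0 of them passed. H2AZ1, which encodes the H2A.Z found beside transcription start sites, was at 409 and 350 FPKM in the controls against 380 and 287 FPKM in the knockdown. The higher knockdown library fell between the controls and the other lay below both. Its log2 fold change was -0.20 (SE 0.170, limma adjusted p of 0.605, interval from -0.61 to 0.22), and without KDM5_KD replicate 2 it was 0.0080. H2AZ2, the second H2A.Z gene and not one of the 6, was at 267 and 222 FPKM in the controls against 221 and 203 FPKM in the knockdown, with a log2 fold change of -0.20 (limma adjusted p of 0.493). H2AZ1 supplied between 58.5% and 63.2% of the summed H2A.Z level in the 4 libraries, 60.8% ± 0.477 in NC and 60.9% ± 3.35 in KDM5_KD (SD, n = 2 each).

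H2AX, whose product carries the phosphorylation mark of DNA breaks, was at 179 and 165 FPKM in the controls against 160 and 136 FPKM in the knockdown. Both knockdown libraries were below both controls, by a margin of a few FPKM for the nearer pair. The group means were 172 ± 9.38 and 148 ± 16.5 FPKM (SD, n = 2 each), so the knockdown level was 86.1% of the control level. The log2 fold change was -0.22 (SE 0.128, limma adjusted p of 0.434, interval from -0.53 to 0.095), and it was -0.10 without KDM5_KD replicate 2. Groups that did not overlap in this direction were found for 15.6% of all tested transcripts and for 24.5% of those in the highest level group. The ratio of H2AZ1 to H2AX was 2.29 and 2.12 in NC and 2.38 and 2.10 in KDM5_KD, and these values overlapped.

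MACROH2A1, which encodes an H2A variant with a large macro domain, varied least. It was at 35.4 and 39.5 FPKM in the controls against 35.4 and 37.4 FPKM in the knockdown, so all knockdown values lay inside the control range. The log2 fold change was -0.037 (SE 0.130, limma adjusted p of 0.913, interval from -0.35 to 0.28), or -0.075 without KDM5_KD replicate 2. The highest library exceeded the lowest by 1.11-fold. MACROH2A2, the related gene, was at 0.0954 to 0.305 FPKM, and MACROH2A1 made up between 99.2% and 99.7% of their sum.

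H1-8, the oocyte-type linker histone also known as H1FOO, had the widest range of the 6. It was at 49.0 and 37.6 FPKM in the controls against 49.3 and 83.4 FPKM in the knockdown. KDM5_KD replicate 2 stood apart from the other 3 libraries, and KDM5_KD replicate 1 exceeded NC replicate 1 by less than 1%, so the groups did not overlap only by that margin. The control mean was 43.3 ± 8.03 FPKM and the knockdown mean 66.3 ± 24.1 FPKM (SD, n = 2 each), and the log2 fold change was 0.57 (SE 0.266, limma adjusted p of 0.340, interval from -0.081 to 1.22). Without KDM5_KD replicate 2, the library with contradictory labels, the value was 0.19, and without KDM5_KD replicate 1 it was 0.94. Without NC replicate 1 it was 0.75 and without NC replicate 2 it was 0.38. Groups that did not overlap with the knockdown higher were found for 35.1% of all tested transcripts and for 20.95% of the highest level group. Of the 12 oocyte and maternal marker rows, 12 had positive and 0 had negative log2 fold changes, with a median of 0.38, and 6 did not overlap between groups. From the lowest level group to the highest, 76.1%, 69.1%, 58.8% and 46.6% of tested transcripts had positive values. The oocyte median was 0.16 without KDM5_KD replicate 2, 0.60 without KDM5_KD replicate 1 and 0.20 without NC replicate 2. BMP15, an oocyte growth factor gene, was at 118 and 83.8 FPKM in the controls against 149 and 172 FPKM in the knockdown, and was picked after its values were seen. Its order of libraries was that of H1-8, which 3 of the 12 oocyte rows shared. The part of the oocyte transcripts or of the cumulus cell transcripts in the H1-8 difference was not tested.

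The somatic-type linker histone genes H1-2 and H1-3 each gave an order of libraries other than that of H1-8, and their orders also differed from each other. H1-2 was at 12.7 and 20.1 FPKM in the controls against 14.1 and 16.9 FPKM in the knockdown, a log2 fold change of -0.047 (interval from -0.63 to 0.54, and -0.17 on the log2 scale without KDM5_KD replicate 2), and H1-3 was at 1.65 and 4.18 against 1.51 and 3.22 FPKM. NC replicate 2 had the lowest H1-8 and the highest H1-2 and H1-3. As a share of these 3 linker histone rows, H1-8 made up 77.3% and 60.8% in NC and 75.9% and 80.5% in KDM5_KD and was the highest of them in every library. The knockdown shares lay on either side of the higher control share. H1-2 and H1-3 are replication-dependent genes, whose messages oligo(dT) selection recovers mainly in polyadenylated form. The shares therefore cannot give the balance of oocyte and somatic linker histones. H1-1, H1-4 and H1-5 had no row.

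**Figure D2:**
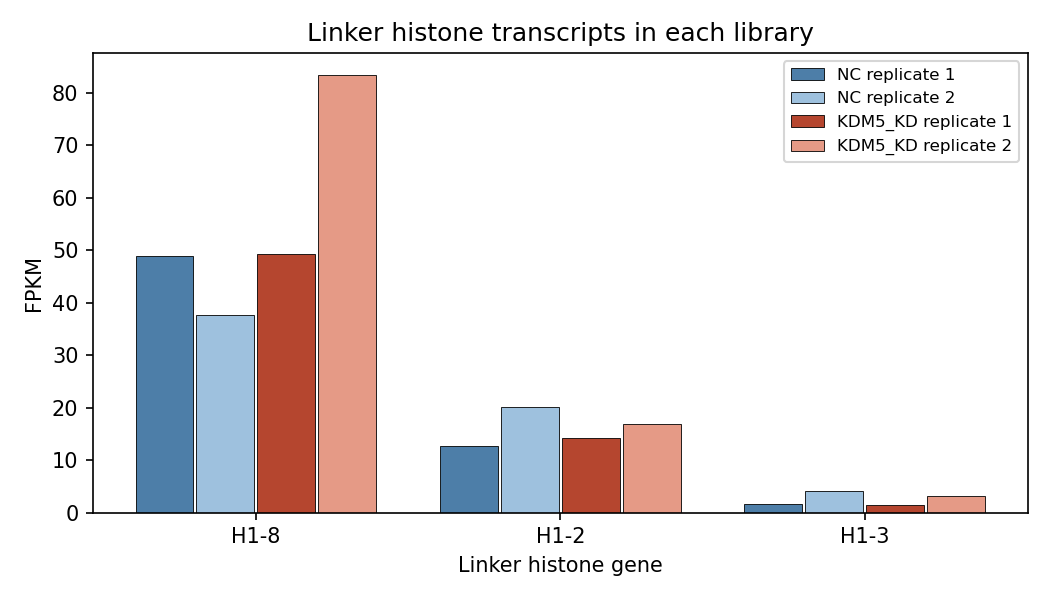
FPKM of 3 linker histone rows in each library as bars (blue NC, red KDM5_KD; the paler bar of each colour is replicate 2). H1-8 was the highest row in all 4 libraries, from 37.6 FPKM in NC replicate 2 to 83.4 FPKM in KDM5_KD replicate 2, and H1-2 was highest in NC replicate 2, at 20.1 FPKM. Messages of H1-2 and H1-3 are recovered only in part by oligo(dT) selection.

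Over the 6 members, 0 passed an adjusted p of 0.05 in limma, where 0.279% of the 8970 tested transcripts did (0.19% higher and 0.0892% lower, or 17 and 8 transcripts). At an unadjusted p under 0.05 the count of members was also 0, against 17.5% of all tested transcripts. The groups did not overlap for 1 member in each direction (H1-8 above, H2AX below), against 50.7% of all tested transcripts in either direction. The members' median log2 fold change was -0.017, beside 0.092 over all tested transcripts and -0.017 over the highest level group, and 3 were positive and 3 negative. The intervals of H3-3A, H3-3B, H2AZ1, H2AX and MACROH2A1 all lay between -0.61 and 0.49, and that of H1-8 reached 1.22, a 2.33-fold increase. Missing the threshold does not show that the levels were alike.

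**Figure D3:**
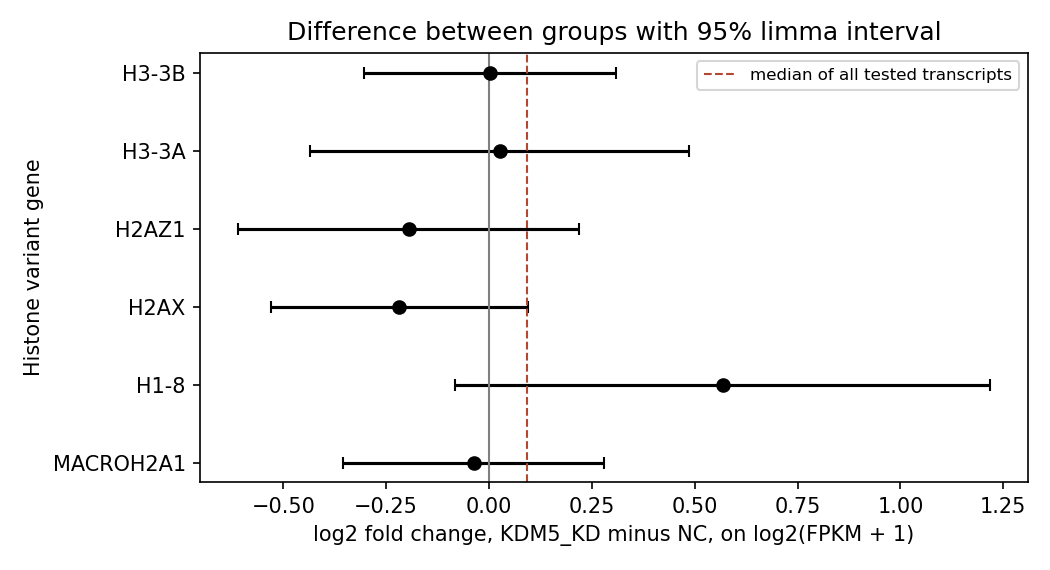
Log2 fold change of each histone variant transcript (KDM5_KD minus NC on log2(FPKM + 1)) as a point with its 95% limma interval, and the median of all tested transcripts as a dashed line. Each interval includes 0, and the one of H1-8, from -0.081 to 1.22, is the widest.

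Apart from H2AZ2, the other histone genes had means of at most 44.4 FPKM, far below those of the H3.3 and H2A.Z genes. Replication-dependent histone messages end in a stem-loop in place of a poly(A) tail, so oligo(dT) selection recovers mainly their polyadenylated forms. Of 33 further histone genes compared, 15 had rows and 12 genes with 13 rows were high enough to test. In limma 0 passed at an adjusted p of 0.05. An unadjusted p under 0.05 was found for 4 rows (3 higher and 1 lower), against 17.5% of all tested transcripts. The median log2 fold change of the 13 rows was -0.047. The 4 rows were H4C1, H4C14, H2AJ and 1 of 2 H2AC6 rows. H2AJ was at 3.51 and 6.90 FPKM in the controls against 9.71 and 8.99 FPKM in the knockdown. That H2AC6 row was at 30.8 and 38.6 against 55.5 and 52.8 FPKM. The other H2AC6 row overlapped between groups, at 11.8 and 26.2 against 24.4 and 10.2 FPKM. H4C1, a canonical H4 gene, was at 10.9 and 15.3 FPKM in the controls against 18.9 and 30.4 FPKM in the knockdown (log2 fold change 0.84, limma adjusted p of 0.207, and 0.51 on the log2 scale without KDM5_KD replicate 2). H4C14 was at 3.20 and 1.65 FPKM against values listed at 1.09e-27 and 1.08 FPKM. Its log2 fold change was -1.21, or -0.68 without KDM5_KD replicate 1 and -1.74 without KDM5_KD replicate 2. H4C16 was at 1.33 and 1.21 against 5.63 and 1.51 FPKM, so its difference rested on KDM5_KD replicate 1. The H4C16 log2 fold change was 0.85, or 0.15 without that library and 1.55 without KDM5_KD replicate 2. H4 genes encode 1 protein from several near-identical copies, so reads may be divided between these rows.

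Chaperones that deliver H3.3 and other H3-H4 dimers were then compared. Of 23 listed genes 18 were tested, and in limma 0 passed and 2 had an unadjusted p under 0.05, against 17.5% of all tested transcripts. The median log2 fold change of the 18 was -0.048. Of the 18, 5 lay above both controls in both knockdown libraries and 5 below, against 35.1% and 15.6% of all tested transcripts. DAXX, an H3.3 chaperone, was at 76.1 and 81.4 FPKM in the controls against 84.2 and 85.0 FPKM in the knockdown. Its log2 fold change was 0.10 (limma adjusted p of 0.690). UBN1 was lower, at 74.4 and 72.7 against 62.3 and 65.5 FPKM, and so was CHAF1A, at 74.2 and 78.5 against 59.6 and 72.8 FPKM. DAXX, UBN1 and CHAF1A were picked after their values were seen. DNAJC9, a heat shock co-chaperone for H3-H4, was at 10.5 and 9.24 FPKM in the controls against 14.02 and 14.28 FPKM in the knockdown (log2 fold change 0.48, limma adjusted p of 0.215). TONSL, a reader of newly made H4 at replication forks, was at 11.1 and 9.37 against 6.77 and 6.91 FPKM (log2 fold change -0.51, limma adjusted p of 0.230). ASF1A, which hands H3-H4 to the assembly complexes, was at 31.0 and 39.3 against 42.3 and 39.6 FPKM (log2 fold change 0.22, limma adjusted p of 0.512). HIRA, ATRX, CABIN1, HJURP and MCM2 had no row.

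Among factors that exchange H2A.Z and H2A-H2B dimers, 21 of 23 listed genes were tested. In limma 0 passed and 4 had an unadjusted p under 0.05, against 17.5% of all tested transcripts. The median log2 fold change of these 21 was 0.025. It was -0.085 under median-ratio scaling, -0.12 after quantile normalization, -0.090 under a common sum and -0.075 without NC replicate 1. ANP32E, the chaperone that removes H2A.Z from nucleosomes, had the largest difference and was at 18.4 and 18.6 FPKM in the controls against 31.7 and 43.1 FPKM in the knockdown (log2 fold change 0.96 with an SE of 0.178, limma adjusted p of 0.107). VPS72, the H2A.Z-binding subunit of the depositing complexes, was at 22.4 and 23.7 FPKM in the controls against 30.0 and 51.1 FPKM in the knockdown (log2 fold change 0.74, limma adjusted p of 0.218), and the log2 fold change was 0.37 without KDM5_KD replicate 2 and 1.12 without KDM5_KD replicate 1. In both cases the controls were close together. The rule for naming took only rows without overlap, and 35.1% of all tested transcripts were higher in the knockdown without overlap. NAP1L4, an H2A-H2B chaperone, was at 10.8 and 10.7 against 14.7 and 18.4 FPKM (log2 fold change 0.57, limma adjusted p of 0.193). H2AZ1 itself, the cargo of the first 2, had a lower mean in the knockdown, as given above, and a link to these factors was not tested.

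The linker histone and nucleoplasmin-type group had 10 of 14 listed genes tested, and in limma 0 passed and 3 had an unadjusted p under 0.05, against 17.5% of all tested transcripts. Its median log2 fold change was 0.017. NPM2, the egg nucleoplasmin that remodels sperm chromatin and is also on the oocyte list, was at 4.97 and 6.06 FPKM in the controls against 7.18 and 10.8 FPKM in the knockdown (log2 fold change 0.60, limma adjusted p of 0.281). Like H1-8 it was highest in KDM5_KD replicate 2, and its log2 fold change was 0.33 without that library. The nucleosome-binding protein genes HMGN1 and HMGN2 had log2 fold changes of 0.51 and 0.48, with limma adjusted p of 0.139 and 0.268. HMGN1 was at 42.1 and 41.1 FPKM in the controls against 57.6 and 61.9 FPKM in the knockdown, and HMGN2 at 105 and 116 against 129 and 185 FPKM. Without KDM5_KD replicate 2 the HMGN2 value was 0.23, and without KDM5_KD replicate 1 it was 0.74. SET, a histone chaperone gene singled out after its values were seen, was at 820, 1064 and 852 FPKM in 3 libraries and listed at 0 in KDM5_KD replicate 1, without which its log2 fold change was -0.13, and without KDM5_KD replicate 2 it was -9.87. A listed 0 in this table can be a failed estimate, and none of the 6 histone variant rows held one.

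Genes of the H2AX phosphorylation response and of histone message processing were also compared. In the first list 17 of 20 genes were tested, and in limma 0 passed and 1 had an unadjusted p under 0.05, against 17.5% of all tested transcripts. The median log2 fold change of this list was 0.020. PPP4C, a phosphatase that acts on phosphorylated H2AX, was at 269 and 237 FPKM in the controls against 213 and 195 FPKM in the knockdown (log2 fold change -0.31, limma adjusted p of 0.277). EYA2, a tyrosine phosphatase of the same pathway, was at 2.48 and 1.82 against 1.40 and 1.38 FPKM, and PRKDC, a kinase for H2AX, at 1.18 and 0.941 against 1.28 and 1.58 FPKM. Their limma adjusted p were 0.406 and 0.612, and the PRKDC difference of 0.24 became negative under quantile normalization and was 0.14 without KDM5_KD replicate 2. In the second list 9 of 14 genes were tested and in limma 0 passed, also without adjustment, with a median log2 fold change of 0.039. LSM10, a subunit of the particle that cuts histone messages, was at 25.46 and 20.96 FPKM in the controls against 17.8 and 18.4 FPKM in the knockdown (log2 fold change -0.34, limma adjusted p of 0.334). SYMPK and ERI1, which act in cleavage and in trimming of histone messages, had log2 fold changes of -0.22 and -0.15 (limma adjusted p of 0.489 and 0.549).

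**Figure D4:**
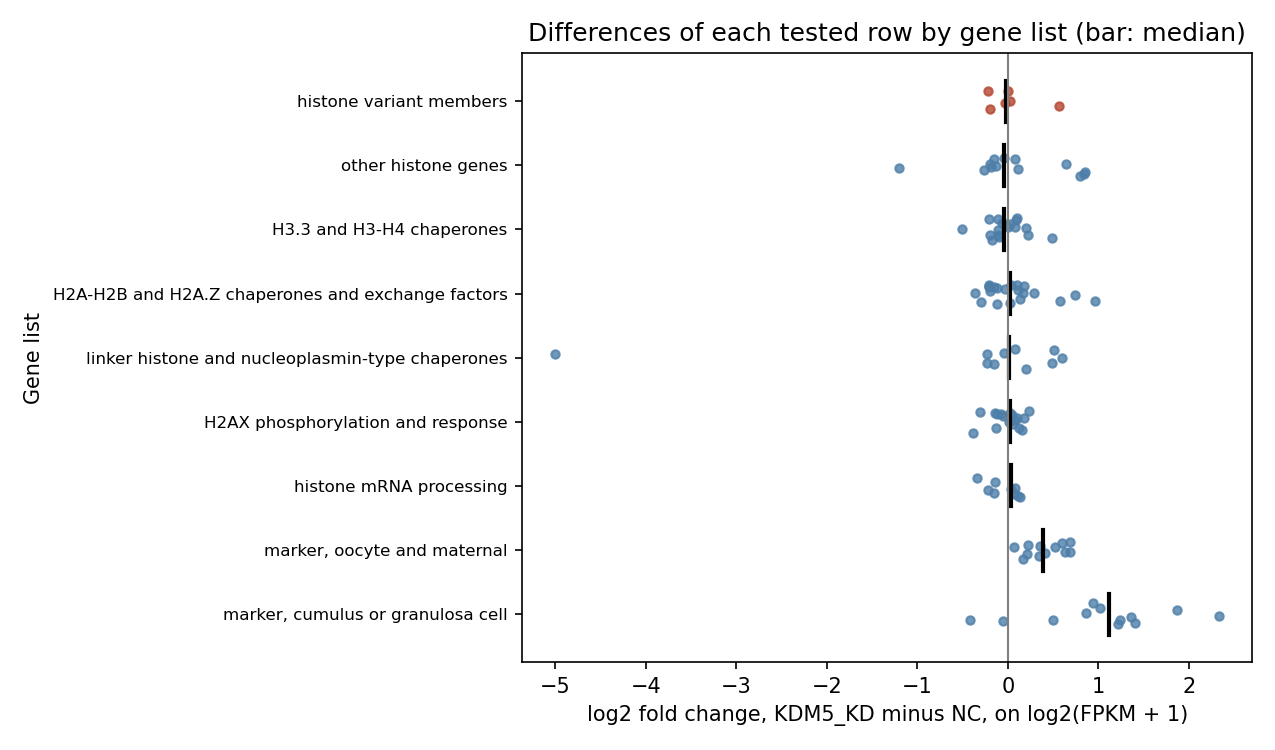
Log2 fold change (KDM5_KD minus NC on log2(FPKM + 1)) of every tested row, grouped by gene list, with a black bar at each median; the histone variant transcripts are in red. The medians of the 7 histone lists lie between -0.048 and 0.039, those of the oocyte and cumulus cell lists at 0.38 and 1.12, and the point near -5.00 is SET, listed at 0 in 1 library.

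For each histone variant the transcripts of other genes with the most similar pattern were looked up among 6011 transcripts with a symbol and a mean of at least 5 FPKM, by the root mean square difference of the centred log2(FPKM + 1) values over the 4 libraries. Nearest to H3-3B were PSMB5 (0.0053) and KYAT3 (0.0090), and nearest to MACROH2A1 were TAF2 (0.0070) and DCAF11 (0.0098). H3-3A was followed by ATP5MG (0.017) and ARHGAP27 (0.024), H2AZ1 by ZNF296 (0.011) and BASP1 (0.014), and H2AX by DHODH (0.012) and NDEL1 (0.017). The closest to H1-8 were ABL1 (0.026) and DAB2IP (0.027). ABL1 was at 27.5 and 20.8 FPKM in the controls against 26.5 and 45.6 FPKM in the knockdown, again with KDM5_KD replicate 2 apart from the rest. With 4 libraries many transcripts share any given pattern, so these are descriptions of these libraries.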

How the data were processed

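The authors deposited 1 table of FPKM values, 1 column per library, with 14517 RefSeq accessions. Trimmomatic, HISAT2, featureCounts and Cufflinks are named, without versions or roles, in the submitters' processing notes. The genome build and annotation are not given in the sources used here, so no positions are printed. Symbols came from RefSeq for ARS-UCD2.0 (14295 accessions matched). Groups follow the sample titles. All 4 libraries were fitted with limma 3.58.1 in R 4.3.3 (lmFit, eBayes with a trend) on log2(FPKM + 1), over the 8970 transcripts with a mean of at least 1 FPKM, with Benjamini-Hochberg adjustment over all of them; the fit was tested on simulated data. Intervals are limma's. Tables were made with Python 3.11.15, pandas 2.3.3 and numpy 2.4.6, and plots with matplotlib 3.10.9. Named were the 6 members, KDM5A, KDM5C, KDM6A, per list any call and the 3 largest differences without overlap, and the 2 most similar transcripts per member. H2AZ2, CENPA, H1-2, H1-3, H3-5, H3-3D and MACROH2A2 were named outside this rule as relatives of members. So were the markers, H2AJ, H2AC6, UBN1, CHAF1A, DAXX and SET. All of these were named with values known. Members and lists were chosen with earlier results of these data known. Alternatives changed the pseudocount, filter, scaling, variance model, pairing, rows and libraries. Of the listed genes, 1 is not reported here.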

Additional observations from a re-analysis of the deposited data

How the results depend on the processing

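None of the 6 histone variant transcripts passed the threshold in any of the 10 alternatives with all libraries or the 4 with one left out. H2AZ1, H2AX, H1-8 and MACROH2A1 kept their direction in those 10, while H3-3B reversed to -0.11 under median-ratio scaling and to -0.11 under a common sum, and H3-3A to -0.086 and -0.090; quantile normalization and the common sum shifted the median of all transcripts by -0.14 and -0.10. With one library left out, H3-3B lay between -0.099 and 0.10, H3-3A between -0.19 and 0.24, H2AZ1 between -0.40 and 0.0080, MACROH2A1 between -0.11 and 0.039, H2AX between -0.33 and -0.10 and H1-8 between 0.19 and 0.94. The lone library of an arm is then assumed to vary like the other group.

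The 17 higher and 8 lower transcripts became 2 and 1 without a filter, 11 and 8 at a mean of at least 5 FPKM, 7 and 7 under a common sum, 6 and 6 without a trend, 37 and 9 with robust eBayes, and 17 and 12 after quantile normalization. They numbered 323 and 17 without NC replicate 1, 30 and 11 without NC replicate 2, 5 and 3 without KDM5_KD replicate 1, and 3 and 3 without KDM5_KD replicate 2. With the replicate number as a block (replicate block) they were 8 and 4, and no histone variant changed its side; the numbers are shared between groups in the titles only, and deviations of equal numbers correlated at 0.229. For 28 other genes (those of the naming rule apart from similar transcripts, and H2AZ2, CENPA, H1-2, H1-3, BMP15, DAXX and SET), 370 of 387 comparisons kept direction and side. KDM5A lost the threshold in 6, and KDM5C and BMP15 (without NC replicate 1) and SET (without KDM5_KD replicate 2) gained it. With one library left out KDM6A ranged from -0.37 to 0.15, H1-2 from -0.36 to 0.26 and H1-3 from -0.67 to 0.30; PRKDC reversed to -0.066 after quantile normalization and DAXX to -0.0075 and -0.012 under median-ratio scaling and a common sum. Of 98 counts of calls in the histone lists 1 moved (SET), and of 56 in the marker lists 5 did: the cumulus count of 0 became 4 without NC replicate 1, 1 without NC replicate 2 and 1 with robust eBayes, and the oocyte and embryo counts became 1 without NC replicate 1. The causes were not tested. Depth limits the lowest rows most, and no detection limit can be stated without read counts.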
